A study of Mus musculus with 4 samples.

Results

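The tuft cell genes described here are 10 genes of the mouse: Dclk1, Trpm5, Gfi1b, Plcb2, Gnat3, Alox5, Ptgs1, Hpgds, Il25 and Il17rb. They were taken by name, as every probe whose gene name in the scanner files is one of the 10 and that is not a control spot. This gave 15 probes of 39429 on the array, and 10 genes of 30119 named genes or transcripts. Dclk1 had 4 probes, Plcb2 and Il17rb had 2 each, and the other genes had 1 each.

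The study measured the RNA of wild type C57/BL6 mice in o-organoids, y-organoids, crypts and whole intestine. Both organoid samples are labelled as crypt-villus organoids, which are epithelial cultures grown from crypts; the labels do not say what the letters o and y mean, and give no age, culture time or number of animals. Each of the 4 samples was hybridised to 1 Agilent 1-colour array, and all arrays lay on 1 slide. There are no replicates, so no test between groups was possible and every difference describes a pair of arrays, not a condition. The o-organoid RNA was labelled from 40 ng and the other 3 RNAs from 20 ng, so an effect of RNA input and a property of the o-organoids cannot be told apart.

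Tuft cells are rare epithelial cells of the gut that sense luminal compounds with a signalling chain shared with taste cells: a receptor acts through the G protein alpha subunit gustducin (Gnat3) and the phospholipase Plcb2, calcium is released, and the cation channel Trpm5 opens. In the mouse small intestine they are the main epithelial source of the cytokine Il25, which acts on innate lymphoid cells, and they carry the enzymes for leukotrienes and prostaglandins. Dclk1, a kinase with a doublecortin domain, is the most used marker of these cells in the mouse intestine. Several of the 10 genes are also transcribed in other cells: Alox5, Ptgs1, Hpgds and Plcb2 in leukocytes, mast cells or platelets, Gfi1b in red cell and megakaryocyte precursors, and Dclk1 in neurons.

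The probes that carried the measurements below are shown by their first 30 of 60 bases, 5′ to 3′, in lower case throughout, as deposited in the scanner files. The 3 Dclk1 probes lie on the + strand of chromosome 3 at chr3:55266925-55266984 (A_55_P2148748), chr3:55273441-55273500 (A_55_P2204804) and chr3:55340456-55340515 (A_51_P270355), in build mm9. They are set side by side because they did not give the same differences between arrays.
Dclk1 A_55_P2148748: aatggaacccctggtagtcagctctctact
Dclk1 A_55_P2204804: cctcttctttgcagccatacctgactgtac
Dclk1 A_51_P270355: tgtgaattgttccaaaccattagaaggaaa
The other 4 are those of the remaining genes measured on every array. They lie at chr7:150257434-150257456 on the minus strand (Trpm5), chr6:116360326-116360385 on the minus strand (Alox5), chr2:36107644-36107703 on the plus strand (Ptgs1) and chr14:30809354-30809413 on the minus strand (Il17rb), in the same build. The interval given for Trpm5 spans 23 bases, fewer than the 60 of the probe, so it places only part of that probe.
Trpm5 A_66_P131008: tatgacggatacactggctccaggaggcac
Alox5 A_51_P247249: tttatgcttcctccaattgcttgcatagag
Ptgs1 A_51_P279100: gagccacacttagactctttccaaagatgt
Il17rb A_55_P2124498: taatgaataatccgtttgggaggctctcac
The file annotation names each probe's gene and genome position, but whether a position is in an exon, an intron or a UTR was not looked up here, since no annotation of that build was used.

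Signals are given on the log2 scale relative to the 75th percentile of the array, so that 0 is the brightness at that percentile. The ± value is the scanner software's own error of the spot, and for a difference the errors of both spots combined; it covers the measurement of a spot and not the spread between animals, cultures or labellings. Between 51.9% and 58.7% of the non-control spots were well above background on an array, and no spot was saturated. The lowest signal well above background was -5.0 on the o-organoid, -4.47 on the y-organoid, -4.52 on the crypt and -4.48 on the intestine array. Most of the tuft probes lay in the dim part of this range.

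Of the 10 genes, read by their brightest probe, 5 were well above background on all 4 arrays: Dclk1, Trpm5, Alox5, Ptgs1 and Il17rb. Gnat3, Hpgds and Il25 were on none, Gfi1b was on the y-organoid, crypt and intestine arrays, and Plcb2 was on the o-organoid array alone. This made 6 of 10 on each array, beside 54.8% of all genes on the o-organoid, 54.3% on the y-organoid, 52.2% on the crypt and 58.8% on the intestine array. Of the defining tuft cell markers, Dclk1 and Trpm5 were thus measured in every sample, while Il25 and Gnat3 were not well above background in any.

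**Figure D1:**
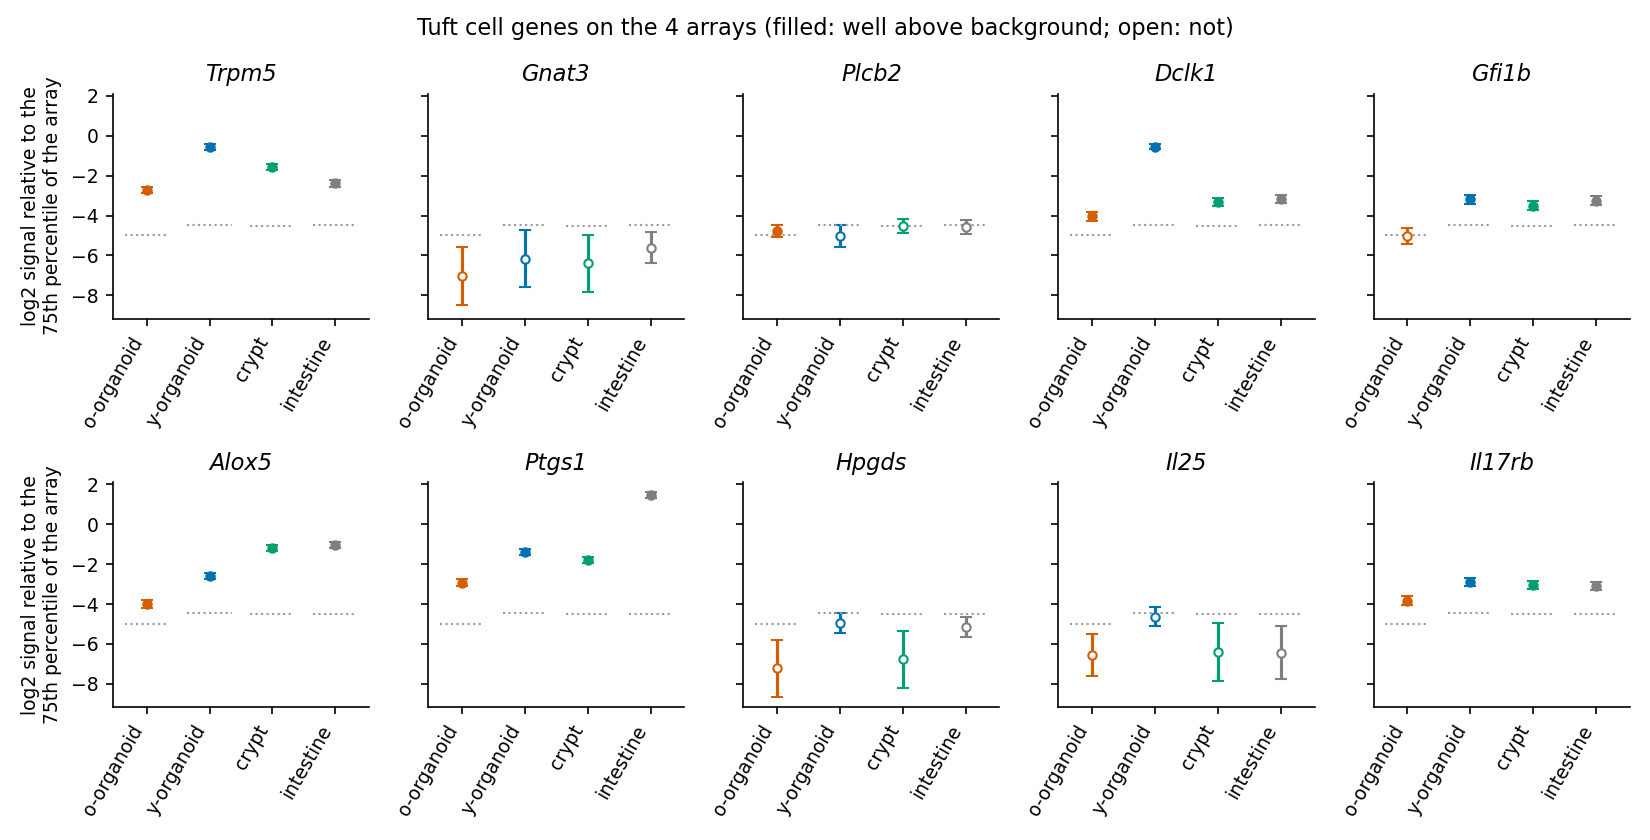
Log2 signal, relative to the array's 75th percentile, of the brightest probe of each tuft cell gene on the o-organoid, y-organoid, crypt and intestine arrays, 1 array each; filled points are well above background, open points are not, bars are the scanner software's error, and dotted lines mark the lowest signal well above background on the array. Dclk1 and Trpm5 are highest on the y-organoid array at -0.54, Ptgs1 is highest on the intestine array at 1.47, and the 5 genes measured on every array are all lowest on the o-organoid array.

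Trpm5, the channel at the end of the taste-type chain, had a signal of -2.72 ± 0.16 in o-organoids, -0.54 ± 0.15 in y-organoids, -1.54 ± 0.15 in crypts and -2.39 ± 0.17 in intestine. The y-organoid array was highest and the crypt array second, while the intestine and the o-organoid arrays did not differ beyond 2 errors (-0.33 ± 0.23 for o-organoid minus intestine). Trpm5 was 2.0-fold higher in y-organoids than in crypts (1.0 ± 0.21 on the log2 scale) and 2.26-fold lower in o-organoids than in crypts (-1.18 ± 0.22). The difference between o-organoids and y-organoids was 4.54-fold (-2.18 ± 0.22, lower in o-organoids). Crypts were 1.79-fold above intestine (0.84 ± 0.22), which is below 2-fold but beyond 2 errors.

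Gnat3, gustducin, was not well above background on any array, with processed intensities of 4.89 in o-organoids, 3.93 in y-organoids, 5.59 in crypts and 7.83 in intestine, so no level was measured. Plcb2, the phospholipase of the chain, was well above background only in o-organoids, where its brighter probe had -4.79 ± 0.31. On the y-organoid, crypt and intestine arrays the same probe read -5.02 ± 0.56, -4.51 ± 0.35 and -4.57 ± 0.36 without passing the background flag. These 3 values lie within 2 errors of the o-organoid value, and the limit set by the lowest measurable signal gives no fold. The second Plcb2 probe was not well above background on any array.

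Dclk1 was measured by 3 probes on all 4 arrays, and all 3 were highest in y-organoids. Probe A_55_P2204804, the brightest, read -4.04 ± 0.22 in o-organoids, -0.54 ± 0.15 in y-organoids, -3.30 ± 0.20 in crypts and -3.16 ± 0.19 in intestine. Probe A_55_P2148748 read -3.83 ± 0.20 in o-organoids, -2.0 ± 0.16 in y-organoids, -3.52 ± 0.22 in crypts and -3.47 ± 0.21 in intestine. Probe A_51_P270355 read -3.83 ± 0.22 in o-organoids, -1.76 ± 0.16 in y-organoids, -2.63 ± 0.18 in crypts and -3.68 ± 0.25 in intestine. Below the y-organoids the order was not the same: by A_55_P2204804 intestine and crypts were level within error and o-organoids lower, by A_55_P2148748 the other 3 arrays were level within 2 errors, and by A_51_P270355 crypts stood above intestine and o-organoids, which were level. The fourth Dclk1 probe, A_55_P1970244, was not well above background on any array.

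The 3 probes gave y-organoid minus crypt differences of 2.76 ± 0.25 (6.78-fold) for A_55_P2204804, 1.53 ± 0.28 (2.88-fold) for A_55_P2148748 and 0.87 ± 0.24 (1.82-fold) for A_51_P270355. The value of A_55_P2204804 exceeded that of A_51_P270355 by 1.90 ± 0.35 on the log2 scale and that of A_55_P2148748 by 1.24 ± 0.37, both beyond 2 errors, whereas A_55_P2148748 and A_51_P270355 were 0.66 ± 0.37 apart, within 2 errors. A constant of the array cancels between probes, so these gaps do not depend on which constant scales an array; with normexp background correction they were 1.11, 0.78 and 0.33. Between o-organoids and y-organoids the 3 differences were -3.50 ± 0.26 (11.3-fold), -1.84 ± 0.26 (3.58-fold) and -2.07 ± 0.27 (4.20-fold), in the same probe order and all lower in o-organoids. Between crypts and intestine only A_51_P270355 differed beyond 2 errors, by 1.05 ± 0.31 (2.07-fold higher in crypts), against -0.14 ± 0.28 for A_55_P2204804 and -0.06 ± 0.31 for A_55_P2148748. With normexp background correction the difference of A_51_P270355 became 0.22, within its error. Between o-organoids and crypts the values were -0.74 ± 0.30, -0.31 ± 0.30 and -1.20 ± 0.28 in the same order, so that A_55_P2148748 did not differ beyond 2 errors.

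The files list these probes against different sets of Dclk1 transcripts. A_55_P2204804 and A_55_P2148748 lie 6.52 kb apart and both carry the description of transcript variant 4, while A_51_P270355 lies 73.5 kb downstream of A_55_P2148748 and carries that of variant 1. A_55_P2204804 is listed for 2 transcripts, and both are also listed for A_55_P2148748, which is listed for 4. A_51_P270355 is listed for 4, of which 1 is shared with A_55_P2148748 and 0 with A_55_P2204804. The probe with the largest y-organoid difference is thus the one with the shortest transcript list; its letters were not compared with other genes here.

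**Figure D2:**
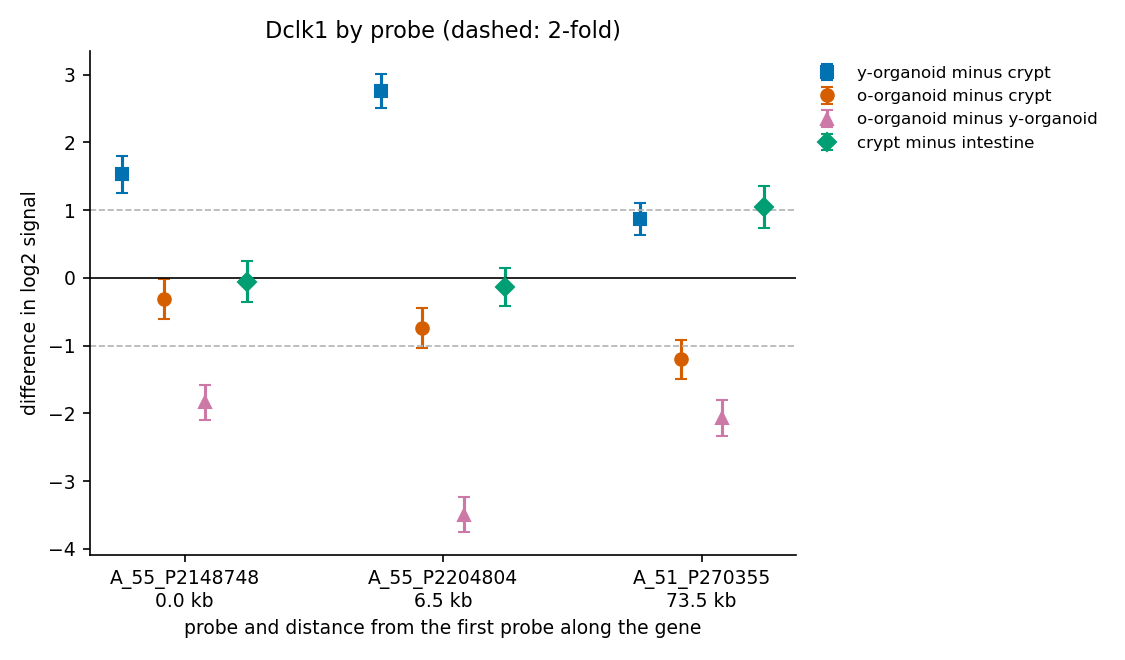
Log2 differences between arrays at each of the 3 Dclk1 probes that were well above background on every array, placed in the order of their distance in kb along the gene; bars are the scanner software's error and dashed lines mark 2-fold. Values for y-organoid minus crypt are above 0 and values for o-organoid minus y-organoid below 0 at each probe, farthest at A_55_P2204804, and the value for crypt minus intestine leaves 0 only at A_51_P270355.

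Gfi1b, a zinc finger repressor that also marks tuft cells, read -3.18 ± 0.23 in y-organoids, -3.50 ± 0.24 in crypts and -3.25 ± 0.21 in intestine, which were level within 2 errors. In o-organoids it read -5.03 ± 0.39 and was not well above background. Set against the lowest measurable signal, Gfi1b in o-organoids was 3.53-fold below y-organoids, 2.83-fold below crypts and 3.37-fold below intestine. These bounds leave out the errors, which were 0.45, 0.46 and 0.44 on the log2 scale. Each difference was beyond 2 errors of 0, but 2 errors also reach under 2-fold. The lowest measurable signal is not a strict limit. In o-organoids another gene, Tas1r1, read -4.83, above that limit, without being well above background.

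Alox5, the lipoxygenase that starts leukotriene synthesis, was highest in the tissue samples. It read -3.99 ± 0.21 in o-organoids, -2.59 ± 0.17 in y-organoids, -1.18 ± 0.15 in crypts and -1.05 ± 0.15 in intestine. Crypts and intestine were level within error (-0.13 ± 0.21), y-organoids were 2.66-fold below crypts (-1.41 ± 0.23) and o-organoids 7.01-fold below crypts (-2.81 ± 0.25). O-organoids were also 2.63-fold below y-organoids (-1.39 ± 0.27). The direction of Alox5 between y-organoids and crypts was thus opposite to that of Dclk1 and Trpm5.

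Ptgs1, the constitutive cyclooxygenase of prostaglandin synthesis, was the only one of the 5 measured on every array to stand far above the rest in whole intestine. It read -2.92 ± 0.16 in o-organoids, -1.41 ± 0.15 in y-organoids, -1.79 ± 0.15 in crypts and 1.47 ± 0.14 in intestine. Crypts were 9.54-fold below intestine (-3.25 ± 0.21), y-organoids and crypts were level within 2 errors (0.38 ± 0.21), and o-organoids were 2.19-fold below crypts (-1.13 ± 0.22) and 2.84-fold below y-organoids (-1.51 ± 0.22). Hpgds, the haematopoietic-type prostaglandin D synthase, was not well above background on any array, with intensities of 4.28 in o-organoids, 9.04 in y-organoids, 4.30 in crypts and 10.7 in intestine.

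Il25, the tuft cell cytokine, was not well above background on any array. Its processed intensities were 6.72 ± 4.93 in o-organoids, 11.4 ± 3.80 in y-organoids, 5.54 ± 5.52 in crypts and 4.45 ± 4.14 in intestine. Il17rb, a subunit of the receptor for Il25, read -3.83 ± 0.22 in o-organoids, -2.91 ± 0.21 in y-organoids, -3.03 ± 0.20 in crypts and -3.12 ± 0.20 in intestine. The y-organoid, crypt and intestine values were level within error, and o-organoids were 1.74-fold below crypts (-0.80 ± 0.30) and 1.89-fold below y-organoids (-0.92 ± 0.30), in both cases beyond 2 errors and under 2-fold. The second Il17rb probe was not well above background on any array.

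The genes were then counted in 4 comparisons, each gene by its brightest probe, with a difference of 2-fold or more counted as higher or lower. Between crypts and intestine, 6 genes were measured on at least 1 of the 2 arrays; 0 were higher and 1, Ptgs1, was lower in crypts, while of all genes 6.83% were higher and 14.2% lower. The median difference was -0.13 for the tuft genes and 0.06 for all genes, and the tuft median turned to 0.61 with the authors' scaling, which shifts the median of all genes by 0.74. Dclk1 and Trpm5 were thus not among those counted here, although the probe A_51_P270355 alone would have counted Dclk1 as higher.

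In y-organoids against crypts, 2 of 6 genes were higher (Dclk1 and Trpm5) and 1 was lower (Alox5), beside 18.4% higher and 13.6% lower among all genes. The median was 0.35, against 0.15 over all genes, and it turned to -0.17 with the authors' scaling, which shifts the median of all genes by -0.51. The directions of Dclk1, Trpm5 and Alox5 held under each of the 4 other scalings or background corrections, but with normexp correction 1 gene was counted higher, Dclk1, and 0 lower. Trpm5 lies at the limit of 2-fold, and Ptgs1, Gfi1b and Il17rb, at 0.38 ± 0.21, 0.32 ± 0.33 and 0.12 ± 0.29, were within 2 errors of 0. Against intestine, y-organoids had 6.16-fold more Dclk1 signal by A_55_P2204804 and 3.6-fold more Trpm5 signal, but 2.91-fold less of Alox5 and 7.36-fold less of Ptgs1.

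In o-organoids against crypts, 0 of 7 genes were higher and 4 were lower (Trpm5, Alox5, Ptgs1 and, as a bound, Gfi1b), beside 8.51% higher and 13.6% lower among all genes. The median was -1.13, against 0.00 over all genes and -0.03 over all genes measured on both arrays. The 7 genes, here and against y-organoids, include Plcb2, whose bound gives no fold. It was set to 0, so that it could not be counted as higher or lower. With normexp correction 1 of the 4, Alox5, was still 2-fold lower. In o-organoids against y-organoids, 0 of 7 were higher and 5 were lower (Dclk1, Trpm5, Alox5, Ptgs1 and, as a bound, Gfi1b), beside 8.3% higher and 19.3% lower among all genes, with a median of -1.51 against -0.15. These comparisons share the o-organoid array, and both comparisons with crypts share the crypt array, so the counts are not independent of each other. By their brightest probes, all 5 genes measured on every array were lowest in o-organoids, while 26.3% of the 14440 genes measured on every array were lowest there. For Trpm5 the o-organoid array was within 2 errors of the intestine array (-0.33 ± 0.23), so its rank there is not firm. With the authors' scaling, which divides each array by its median, 3 of the 5 (Dclk1, Alox5 and Ptgs1) were lowest in o-organoids. The share of all genes was 8.68%, and Trpm5 and Il17rb were lowest in intestine. Dclk1 was nearly level there: by A_55_P2204804 crypts exceeded o-organoids by 0.61 and intestine by 0.60. By the other Dclk1 probes intestine was lowest. Crypts exceeded o-organoids by 1.08 and intestine by 1.79 for A_51_P270355, and by 0.19 and 0.68 for A_55_P2148748.

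In these bulk samples, fewer tuft cells and less of a transcript per cell cannot be told apart. The 40 ng of RNA used for o-organoids went with a 75th percentile intensity of 641.3, against 281.1 in y-organoids, 469.3 in crypts and 386.1 in intestine, and its part in the low o-organoid values was not tested.

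**Figure D3:**
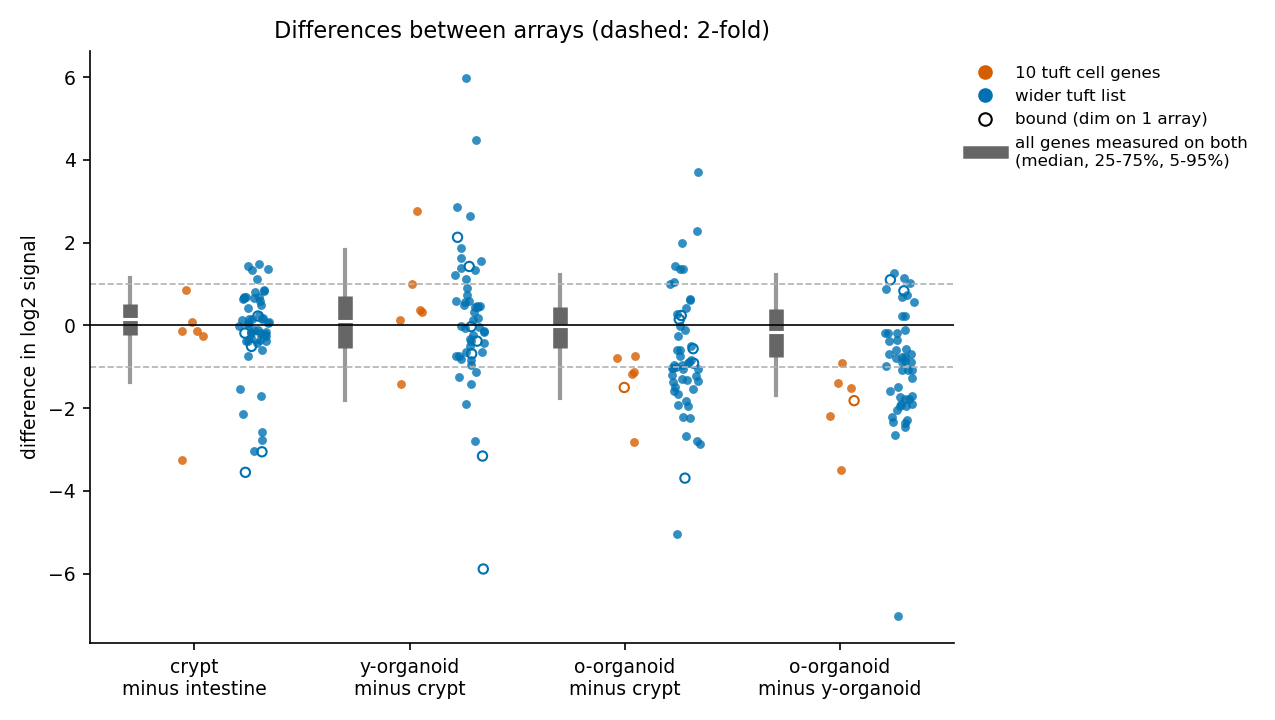
Log2 differences of the tuft cell genes and of a wider list of tuft cell genes in the 4 comparisons, positive where the sample named first is higher; each point is a gene, open points are bounds, and the grey bar gives the median and spread, as the legend marks them, of all genes measured on both arrays. In the 2 comparisons of o-organoids the tuft cell genes lie below 0, while in y-organoids against crypts Dclk1 lies at 2.76, Trpm5 at 1.0 and Alox5 at -1.41.

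A wider list of 68 genes known from tuft cells, grouped by role, placed the 10 genes among their pathway. Of the 68, 45 were well above background on all 4 arrays, 11 on none and 12 on some. In o-organoids against crypts, 7 of 54 were at least 2-fold higher and 25 lower, with a median of -0.93. In o-organoids against y-organoids, 4 of 51 were higher and 22 lower, with a median of -0.87. In y-organoids against crypts 13 of 53 were higher and 7 lower, and in crypts against intestine 5 of 56 were higher and 8 lower, with medians of -0.03 and -0.01. The same shares over all genes are those given above, and they also stand beside the counts by role below. Of the 45 measured on every array, 25 (55.6%) were lowest in o-organoids, beside 26.3% of all genes.

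Among structural and other tuft markers, 15 of 24 were lower and 2 higher in o-organoids than in crypts, with a median of -1.13. Siglecf, a sialic acid binding receptor, read -4.30 in o-organoids, -2.39 in y-organoids, -1.42 in crypts and -1.47 in intestine, 7.32-fold lower in o-organoids than in crypts. Matk, a tyrosine kinase, read -1.88 in o-organoids, 0.16 in y-organoids, 0.91 in crypts and 0.07 in intestine, a 6.92-fold difference between o-organoids and crypts. Siglecf is also a leukocyte gene, and the source of its signal was not tested.

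Between o-organoids and y-organoids, 13 of 23 genes of this group were lower and 2 higher in o-organoids (median -1.49). Sh2d7 and Sh2d6, which encode SH2 domain proteins, were highest in y-organoids and second in crypts, as Trpm5 was. Sh2d7 read -2.03 in o-organoids, 0.44 in y-organoids, -0.48 in crypts and -1.82 in intestine. Sh2d6 read -2.47 in o-organoids, -0.53 in y-organoids, -0.97 in crypts and -1.83 in intestine. The order of o-organoids and intestine is not firm. O-organoid minus intestine was -0.21 for Sh2d7, -0.06 by its second probe, and -0.64 for Sh2d6. With the authors' scaling both genes, like Trpm5, were lowest in intestine. Avil, the actin regulator advillin, read -3.54 in o-organoids, -2.46 in y-organoids, -2.59 in crypts and -4.08 in intestine, and was 2.81-fold higher in crypts than in intestine.

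Cd300lf gave the widest gap of the group, but its brightest probe holds a run of 18 bases of alternating G and A. By that probe y-organoids exceeded crypts by 5.99 on the log2 scale, whereas its other probes gave -1.13 and -0.89, so the probes have opposite signs and no direction is given; the counts of the wider list include the gene by its brightest probe. None of the 15 tuft probes holds such a repeat of 12 or more bases. Trim38, a ubiquitin ligase of the RING type, was 33.2-fold lower in o-organoids than in crypts and at least 59.3-fold lower in y-organoids than in crypts. The actin bundling proteins villin (Vil1) and espin (Espn), which other epithelial cells share, were 6.90-fold and 3.74-fold lower in y-organoids than in crypts, while the keratin Krt23 was 6.25-fold higher.

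**Figure D4:**
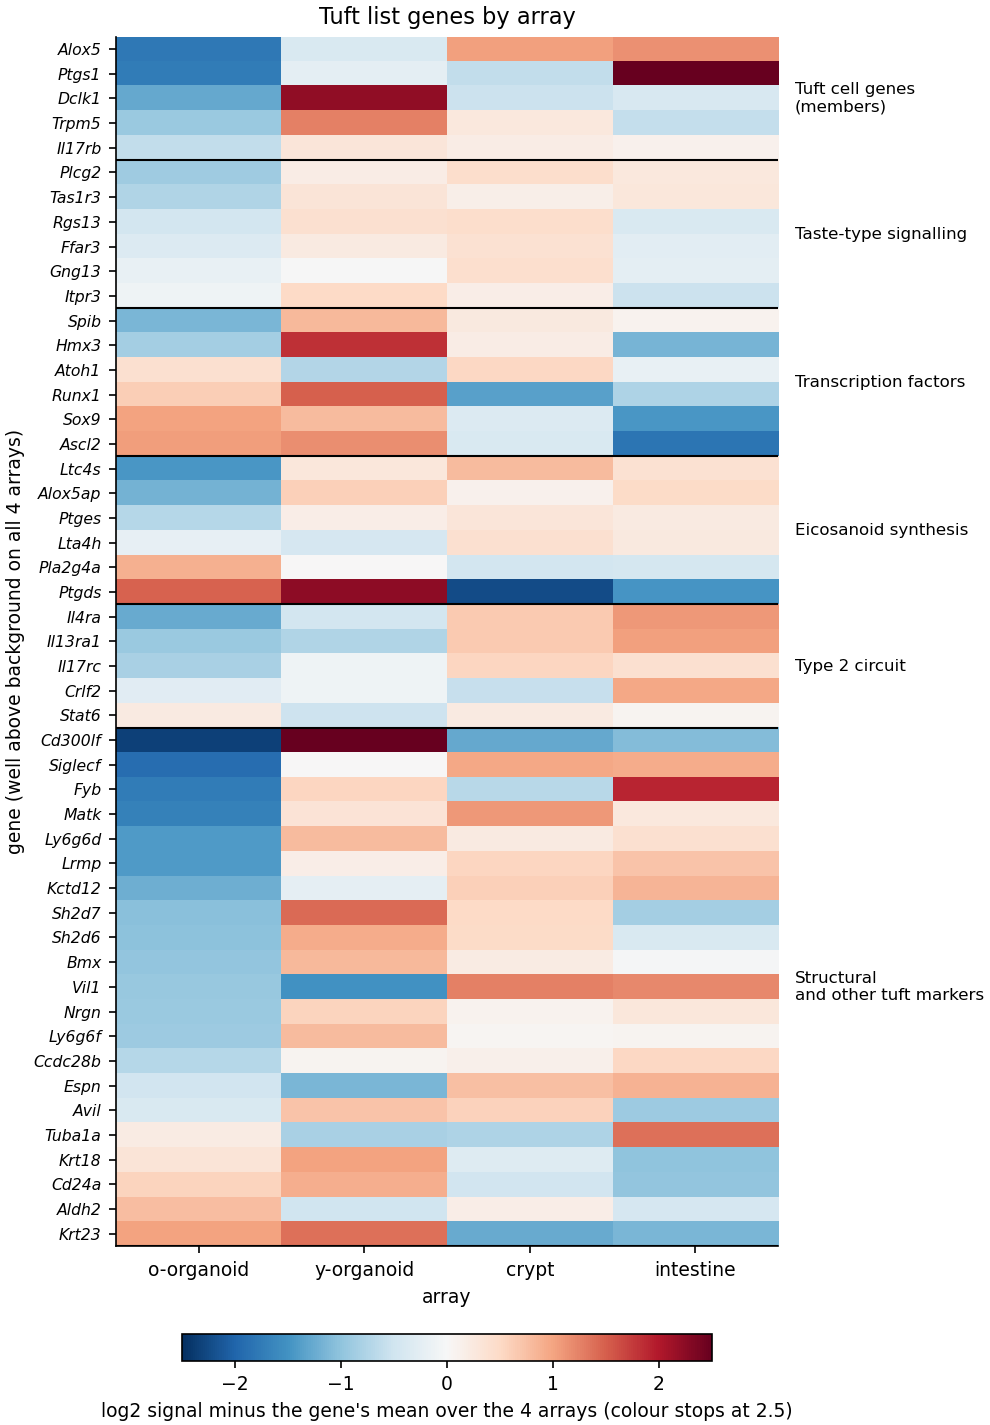
Log2 signal minus the gene's own mean over the 4 arrays, for the tuft cell genes and the genes of the wider list that were well above background on every array, grouped by role; columns are the o-organoid, y-organoid, crypt and intestine arrays. The o-organoid column is the lowest for 25 of the 45 wider list genes, 1 of which is not drawn, and for all 5 tuft cell genes; Cd300lf is drawn by the probe with the repeat.

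Among transcription factors, Pou2f3, the factor that tuft cells need, read -4.16 in o-organoids, -2.88 in y-organoids and -3.80 in intestine, and was not well above background in crypts. It was 2.43-fold lower in o-organoids than in y-organoids and at least 2.68-fold higher in y-organoids than in crypts. The homeobox gene Hmx3 read -3.81 in o-organoids, -1.15 in y-organoids, -2.78 in crypts and -4.13 in intestine, and its neighbour Hmx2 was 5.17-fold lower in o-organoids than in y-organoids. Spib, an Ets family factor, was 2.60-fold lower in o-organoids than in crypts and 3.88-fold lower than in y-organoids.

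Of the 8 factors, 6 were higher and 1 lower in y-organoids than in crypts, and 3 higher and 2 lower in o-organoids than in crypts. Runx1 was higher in both organoids than in crypts, 3.96-fold in o-organoids and 7.26-fold in y-organoids, and Ascl2 and Sox9, which also mark stem and progenitor cells, were higher in o-organoids than in crypts by 1.43 and 1.36 on the log2 scale. Against y-organoids, 4 of the 8 were lower in o-organoids and 1 was higher.

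Among genes of eicosanoid synthesis, Alox5ap and Ltc4s were low in o-organoids, as Alox5 was. Alox5ap, the protein that presents arachidonate to Alox5, read -1.70 in o-organoids, 0.08 in y-organoids, -0.40 in crypts and -0.04 in intestine. Ltc4s, which makes leukotriene C4, read -0.30 in o-organoids, 1.44 in y-organoids, 1.94 in crypts and 1.53 in intestine. They were 2.46-fold and 4.72-fold lower in o-organoids than in crypts. In y-organoids, neither was 2-fold from crypts, whereas Alox5 was 2.66-fold lower. Ptges was also lower in o-organoids than in crypts, 2.02-fold. Not every gene of the group shared the low o-organoid value. Pla2g4a was 2.56-fold higher in o-organoids than in crypts, and Lta4h was 1.51-fold lower, which is under 2-fold. Ptgds, the other prostaglandin D synthase, was higher in both organoids, with -0.48 in o-organoids, 0.28 in y-organoids, -4.19 in crypts and -3.44 in intestine. Of this group, 2 of 7 were higher and 0 lower in y-organoids than in crypts, and in o-organoids 2 were higher and 3 lower.

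In the type 2 circuit, 0 of 8 genes were higher than in crypts in either organoid, while 4 were lower in o-organoids and 3 in y-organoids, bounds included. Of all genes, 8.51% were higher in o-organoids and 18.4% in y-organoids than in crypts, and 13.6% were lower in each. With 8 genes, 0 higher is near these shares. The receptor chains Il4ra, by its brightest probe, and Il13ra1 were lower in both organoids than in crypts. Il4ra was 3.78-fold lower in o-organoids and 2.17-fold in y-organoids, and Il13ra1 2.99-fold in o-organoids and 2.65-fold in y-organoids. The second Il4ra probe gave -0.62 on the log2 scale for o-organoid minus crypt, under 2-fold. It was not well above background in y-organoids. Il13, Il4 and Tslp were not well above background on any array. Il33, an alarmin made outside the tuft cell, was not well above background in either organoid, and read -1.31 in crypts and 0.39 in intestine. It was at least 12.9-fold lower in o-organoids and at least 8.94-fold lower in y-organoids than in crypts.

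Between crypts and intestine, genes of the wider list that leukocytes share were among those lower in crypts. Ptprc, the leukocyte antigen CD45, was not well above background in either organoid and read -4.09 in crypts and -1.32 in intestine, a 6.79-fold difference. The cytokine receptor chain Il2rg was 8.21-fold lower, the adaptor Fyb 6.02-fold lower and the thromboxane synthase Tbxas1 at least 11.7-fold lower in crypts. Genes higher in crypts than in intestine were, beside Avil, Hmx3 (2.56-fold), Ascl2 (1.45 on the log2 scale) and Sox9 (1.11), and Sh2d7 (1.34).

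Of the rest of the taste-type chain, 0 of 6 genes were 2-fold apart between y-organoids and crypts, and 1 of 7, Plcg2, was lower in o-organoids than in crypts (2.51-fold). In o-organoids against y-organoids 2 of 7, Plcg2 and Tas1r3, were lower, at -1.09 and -1.08 on the log2 scale. These counts are near the shares of all genes that were lower, 13.6% against crypts and 19.3% against y-organoids. Itpr3, the calcium release channel of the chain, read 3.64 in o-organoids, 4.24 in y-organoids, 3.91 in crypts and 3.21 in intestine. Gng13, the G protein gamma subunit, read -2.71 in o-organoids, -2.54 in y-organoids, -2.11 in crypts and -2.77 in intestine. Chat, which makes acetylcholine and is a known tuft cell gene, was not well above background on any array.

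Values of markers of other cells that carry some of the 10 genes are given beside these results. Of 14 leukocyte markers, 8 were well above background in o-organoids, 6 in y-organoids, 11 in crypts and all 14 in intestine. Of the 14, 13 were at least 2-fold lower in crypts than in intestine, with a median of -3.02, beside 14.2% of all genes. Their summed linear level, in units of the 75th percentile, was 14.0 in o-organoids, 42.6 in y-organoids, 29.6 in crypts and 143.6 in intestine. Most of the sum outside intestine came from Itgam, at 3.57 in o-organoids, 5.31 in y-organoids, 4.69 in crypts and 4.87 in intestine on the log2 scale. These are values of its brightest probe. Its other probes read -3.36 and -4.29 in o-organoids and -4.58 and -4.28 in crypts. The first of them was not well above background in crypts, and neither repeated the lower o-organoid value. Of the 14 markers, 6, among them Cd3g, Coro1a and Jchain, were not well above background in either organoid. The platelet gene Pf4 read 0.95 in intestine and was not well above background elsewhere. Other platelet genes did not repeat this. Ppbp, Itga2b and Gp9 were not well above background on any array, and Gp1bb read -1.79 in intestine and -0.45 in crypts. Ptgs1 was high on the intestine array, and the part of leukocytes or platelets in its value was not tested. Against crypts, 7 of 11 leukocyte markers were lower in o-organoids, with a median of -1.12, which is the Itgam value by its brightest probe. In y-organoids 3 of 11 were lower, with a median of -0.32. Of all genes, 13.6% were lower in each organoid than in crypts. Alox5 was low in both organoids and level between crypts and intestine, and the part of leukocytes in its value was not tested.

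For mast cells and basophils, Cpa3, Mcpt1 and Mcpt2 were well above background only in intestine, and Cma1, Tpsab1, Fcer1a and Ms4a2 on no array. Of the 11 markers of that list, 3 were well above background in o-organoids, 3 in y-organoids, 3 in crypts and 7 in intestine. Their summed level was 1.67 in o-organoids, 1.62 in y-organoids, 0.676 in crypts and 1.42 in intestine. Most of the sum in both organoids came from Kit, Tpsb2 and Hdc, which were higher there than in crypts. Kit was 3.76-fold higher in o-organoids and 1.55-fold in y-organoids, and Tpsb2 2.01-fold and 3.34-fold. Hdc was at least 2.87-fold higher in o-organoids and at least 11.1-fold in y-organoids. Of 9 megakaryocyte and red cell markers with a probe, 2 were well above background in o-organoids, 1 in y-organoids, 2 in crypts and 4 in intestine. Their summed level was 0.737 in o-organoids, 0.40 in y-organoids, 1.10 in crypts and 38.1 in intestine. Most of the intestine sum came from the haemoglobin gene Hba-a1, at 5.14 on the log2 scale. Most of the other sums came from Gp1bb, at -0.72 in o-organoids, -2.26 in y-organoids and -0.45 in crypts. Gata1, Klf1, Ppbp, Itga2b and Gp9 were not well above background on any array. Of 10 markers of enteric neurons and glia, which also use Dclk1, 5 were well above background in o-organoids, 3 in y-organoids, 1 in crypts and 9 in intestine. Their summed level was 8.33 in o-organoids, 26.9 in y-organoids, 19.4 in crypts and 21.9 in intestine. Most of that sum came from Snap25, at 2.99 in o-organoids, 4.72 in y-organoids, 4.26 in crypts and 4.34 in intestine on the log2 scale. Of the 9 measured markers, 7 were at least 2-fold lower in crypts than in intestine, beside 14.2% of all genes. The part of these cells in the Dclk1 values was not tested.

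Markers of epithelium as a whole had a median of -0.36 in o-organoids against crypts and 0.06 against y-organoids, and of -0.64 in y-organoids against crypts, where 2 of 8 were at least 2-fold lower, beside 13.6% of all genes. Of the 8, 1 was lowest in o-organoids and 4 in y-organoids. Enteroendocrine markers, of another rare secretory cell, had 4 of 8 at least 2-fold lower in o-organoids than in crypts (median -1.31) and 2 of 8 lower than in y-organoids (median -0.55), beside 13.6% and 19.3% of all genes, so that the count against y-organoids is near the background.

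The genes whose profile over the 4 arrays was most like that of each tuft cell gene were found among 14435 genes measured on every array, by the root mean square distance of the profiles after each was centred on its own mean. For Dclk1 by its brightest probe, the nearest were Slc38a11, Zfp740 and ND6, at 0.20, 0.25 and 0.25. For Trpm5, Fgf8 and 1700022I11Rik followed the unnamed transcript TC1607839, at 0.13, 0.14 and 0.07, and 31 genes lay within 0.25. For Alox5 the nearest were Usp2, Cd4 and Bmp8a, at 0.05, 0.06 and 0.07. For Ptgs1 they were Gamt, Tns1 and Eva1b, at 0.07, 0.13 and 0.16. The flat profile of Il17rb had 1146 genes within 0.25, its nearest being A_52_P53626, Slc6a16 and E330032C10Rik at 0.01, 0.02 and 0.03. Dclk1 and Trpm5 lay 0.66 apart, Dclk1 and Alox5 1.73 apart, and Dclk1 and Ptgs1 1.97 apart. With 4 arrays, such distances describe these arrays and say nothing of shared control.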

How the data were processed

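The 10 tuft cell genes and all gene lists were chosen with earlier results of these data known. RNA was extracted by an acid guanidinium method and labelled with Cy3 with a low-input kit, per the labels' protocols. The scanner files hold linear intensities deposited by the authors, made with Feature Extraction 10.7.3.1 (Agilent), which subtracted background, detrended and gave dim spots surrogate values, per the file headers. The headers place probes in build mm9. A second table the authors deposited holds a ratio of each intensity to 1 constant per array (36.94 for o-organoid, 25.16 for y-organoid, 29.45 for crypt, 40.47 for intestine), with a median of 1.0 in each column, linear and not centred by gene. How it was made is unknown.

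The 1377 control spots of an array were left out, and so were 165, 154, 108 and 162 outlier spots on the o-organoid, y-organoid, crypt and intestine arrays, which left 21 probes without a value on an array. Intensities were taken as log2, the 75th percentile of the array was subtracted, and spots of a probe were averaged (399 probes were spotted 10 times). The SD of repeated spots was 0.089 in o-organoids, 0.141 in y-organoids, 0.105 in crypts and 0.121 in intestine, on the log2 scale. Names came from RefSeq's gene table (assembly GRCm38.p6) for 27228 probes by accession, 3581 by symbol and 565 by synonym, and 8055 kept the name in the files. Each gene takes the values of the probe with the highest mean; members were read by every probe.

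With 1 array per group no test was made, and the number of arrays limits the precision. Called means a difference of 2-fold or more (1 on the log2 scale). Where a probe was not well above background on 1 array, the fold is at least the ratio to the higher of its own signal and the lowest signal well above background there. Such bounds leave out the errors of the spots. Some spots brighter than that lowest signal were not well above background, so "at least" is not strict. Text genes of the wider list are, per role and comparison, up to 4 with the largest difference up to 2 bounds, and Pou2f3, Chat, Alox5ap, Ltc4s, Avil, Siglecf and Ptprc; Sh2d6, Il13, Il4, Tslp and the single markers of other cells were added after their values were seen. A gene that the rule takes in is not reported here, though the counts include it. Alternatives were normexp correction (offset 50), quantile normalization, the authors' table, another percentile, no filter on dim probes, the median over a gene's probes, and 1.5-fold or 4-fold. Python 3.11.15, numpy 2.4.6, pandas 2.3.3, R 4.3.3 and limma 3.58.1 were used; steps were tested on simulated data.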

Additional observations from a re-analysis of the deposited data

Results flagged for a closer look

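Probes of 2 tuft cell genes stood on opposite sides of the crypt array in the 2 organoid samples, each by more than 2 of its errors. For Dclk1 by A_55_P2204804 the difference from crypts was -0.74 in o-organoids and 2.76 in y-organoids, and by A_51_P270355 it was -1.20 in o-organoids and 0.87 in y-organoids. For Trpm5 it was -1.18 in o-organoids and 1.0 in y-organoids. These differences of differences were not tested, since each group has 1 array and both share the crypt array. The signs held under each of the 4 other scalings or background corrections: for Trpm5 the o-organoid value lay between -1.18 and -0.85 and the y-organoid value between 0.49 and 1.22.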

How the results depend on the processing

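Of 30 probe differences of the tuft cell genes, each under 4 other scalings or background corrections, 15 of 120 values had another sign. These belong to 8 differences between crypts and intestine or y-organoids and crypts, all within 2 errors of 0 and at most 0.38 in size, among them Dclk1 by A_55_P2204804 in crypt minus intestine (0.60 with the authors' table, against -0.14) and Ptgs1 in y-organoid minus crypt (-0.14, against 0.38). None of the differences of at least 2-fold changed sign; 16 differences were at least 2-fold, and 8 of them stayed so in every setting (13 with the authors' table, 10 with normexp correction, 13 with the percentile over probes above background on all arrays, 14 with quantile normalization). The authors' table shifts the median of all genes by 0.74 in crypt minus intestine, -0.51 in y-organoid minus crypt, 0.12 in o-organoid minus crypt and 0.64 in o-organoid minus y-organoid, the other percentile by -0.20, 0.22, 0.18 and -0.04. For the median of the tuft cell genes, crypt minus intestine (-0.13) became 0.52 with quantile normalization, 0.61 with the authors' table and -0.34 with the other percentile; y-organoid minus crypt (0.35) became -0.018, -0.17 and 0.57; o-organoid minus crypt (-1.13) became -0.69 with normexp, -0.95 with the other percentile and -0.77 without the filter; o-organoid minus y-organoid (-1.51) became -1.09 with normexp, -1.16 with quantile, -0.87 with the authors' table and -1.68 without the filter. Counts of tuft cell genes higher in crypts than intestine (0) became 1 at 1.5-fold, with quantile and with the authors' table, and lower (1) became 2 without the filter. In y-organoids against crypts, higher (2) became 1 at 4-fold, with normexp, with quantile and with the authors' table, and 4 without the filter, while lower (1) became 0 at 4-fold and with normexp. In o-organoids, lower than crypts (4) became 1 at 4-fold and with normexp and 2 with the other percentile, and lower than y-organoids (5) became 2 at 4-fold and 3 with the authors' table. For the wider list, the median of crypt minus intestine (-0.01) became 0.73 with the authors' table and -0.21 with the other percentile; y-organoid minus crypt (-0.03) became 0.20 with normexp, -0.54 with the authors' table, 0.19 with the other percentile and 0.19 without the filter; o-organoid minus crypt (-0.93) became -0.57 with normexp, -0.75 with the other percentile and -0.78 without the filter; o-organoid minus y-organoid (-0.87) became -0.69 with quantile and -0.23 with the authors' table. Its counts higher in crypts than intestine (5) became 14 at 1.5-fold, 0 at 4-fold, 2 with normexp, 9 with quantile and 17 with the authors' table, and lower (8) became 13 without the filter. In y-organoids against crypts, higher (13) became 5 at 4-fold and 8 with the authors' table, and lower (7) became 15 at 1.5-fold, 3 at 4-fold, 4 with normexp and 16 with the authors' table. In o-organoids, higher than crypts (7) became 2 and lower (25) became 7 at 4-fold; higher than y-organoids (4) became 8 at 1.5-fold, 0 at 4-fold, 1 with normexp and 9 with the authors' table, and lower (22) became 8 at 4-fold. Of the other cell lists, 353 results held, 173 moved and, of medians of at least 2-fold, 2 reversed: without the filter, the median of mast cells and basophils in o-organoid minus crypt (1.27) became -0.46 and that of megakaryocytes and red cells in y-organoid minus crypt (-2.0) became 0.30. Causes were not tested. No paired analysis was possible because each group has 1 array. Signal over background limits Gnat3, Hpgds, Il25 and Plcb2, which have no measured difference.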
